A study of Mus musculus with 8 samples.

Results

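Transcripts of the Runx transcription factors, of their partner subunit and of osteoblast genes were followed in embryonic mouse molars after Hedgehog signalling had been challenged with an antibody or a small molecule. The genes were taken by name: Runx1, Runx2, Runx3, Cbfb, Sp7, Alpl, Ibsp and Spp1, with every probe set that the array annotation gives to exactly 1 of them. This gave 13 probe sets, of 45101 on the array, for 6 of the 8 genes. Runx2 and Spp1 had no probe set under this rule and were not analysed here. Of the 13 probe sets, 6 belonged to Runx1, 2 each to Runx3 and Ibsp, and 1 each to Cbfb, Sp7 and Alpl.

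Pregnant ICR mice, an outbred stock, received a single intraperitoneal injection at embryonic day 14, and mandibular molar germs of the embryos were taken 24 hours later. The 4 groups were 5E1 (an IgG1 antibody against Shh, 10 mg/kg), 40-1a (an IgG1 antibody against β-galactosidase, 10 mg/kg), cyclopamine (an antagonist of the Hedgehog signal transducer Smo, 10 mg/kg) and PBS (1 ml), with 2 arrays each. All animals were of the same stock with no engineered allele in the labels, the dam and not the embryo was injected, and neither the vehicle of cyclopamine nor the number of embryos or litters behind an array is given in the labels. The arrays of a group are called biological replicates there, and p-values measure only the spread between them.

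Runx proteins bind DNA through the runt domain, and Cbfb, which does not bind DNA itself, stabilises that binding. Runx2 and the zinc finger factor Sp7 (osterix) are both needed for osteoblasts to form. Alpl, Ibsp and Spp1 encode the tissue-nonspecific alkaline phosphatase, bone sialoprotein and osteopontin, which act in the mineralising matrix. In the lower jaw the molar germ consists of dental epithelium and condensed dental mesenchyme, and alveolar bone forms around it. Runx2 is made in the dental mesenchyme and in bone, Runx1 and Runx3 are also made in blood cells and in some epithelia and sensory neurons, and Hedgehog signals from the dental epithelium reach the mesenchyme.

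The Runx genes share more than the runt domain. Their upstream promoters were compared because all 3 factors are named in this gene set and because this sequence is a property that did not enter the choice of genes. In the RefSeq promoter windows (GRCm38.p6, 250 bases before to 50 after a gene's start) the longest run of letters common to the first window of Runx1, Runx2 and Runx3 had 18 bases, written in capitals in these 30-base stretches, each given 5′ to 3′ on the strand of the gene:
Runx1, chr16:92826027-92826056, minus strand: ctcataaaCAACCACAGAACCACAAGttgg
Runx2, chr17:44814585-44814614, minus strand: ctcacaaaCAACCACAGAACCACAAGtgcg
Runx3, chr4:135120501-135120530, plus strand: tggtccctCAACCACAGAACCACAAGgcca
The run was found, on either strand, in 4 of 32851 windows (0.0122%), the fourth being that of Gm16225, which overlaps the Runx3 window on the opposite strand. The run was defined by the 3 Runx windows, so its presence in them was fixed in advance. It holds TGTGGT, the hexamer bound by Runx proteins, on the reverse strand at 2 places. That hexamer or TGCGGT stood in 22.4% of all windows and in 4 of the 11 windows of the gene set, which belonged to Runx1, Runx2, Runx3 and Spp1. The Gli motif TGGGTGGTC was in none of the 11 windows and in 0.253% of all windows. The shared run itself supplies TGTGGT in each of the 3 Runx windows, and the Runx2 window also holds TGTGGT at -80 and TGCGGT at 39 outside it. Counted from the gene's start, the run begins at 26 in Runx1, 21 in Runx2 and -136 in Runx3. A match describes letters only, and Sp7 had no window.

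Ibsp had the largest difference between group means of the 6 measured genes, so its 250 bases before the start are given too, with the inverted CCAAT box (ATTGG) and the inverted TATA element (TTTATA) in capitals:
Ibsp, chr5:104299037-104299286, plus strand: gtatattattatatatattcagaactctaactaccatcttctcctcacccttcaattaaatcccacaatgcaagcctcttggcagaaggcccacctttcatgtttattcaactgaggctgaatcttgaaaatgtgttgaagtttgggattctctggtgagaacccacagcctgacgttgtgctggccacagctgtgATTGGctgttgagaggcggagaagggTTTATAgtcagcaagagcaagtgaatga
On both strands, ATTGG was present in 37.4% and TTTATA in 13.6% of all windows. Neither Runx hexamer was found in the Ibsp window.

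The values are probe set signals on a linear scale, with the mean after trimming 2% at each end equal to 500 on every array. Of the 13 probe sets, 11 lay above a filter level of 60.5 in signal, and the 2 below it were Runx1 1427650_a_at and Runx3 1421467_at. All 6 genes were tested, each through its probe set of highest mean, among 12999 genes. Differences are in log2(signal + 9) and understate the change of weak genes. The Hedgehog feedback genes check the blockade: Ptch1 was at 2122 and 1552 after 5E1 against 11322 and 7180 after 40-1a, and Gli1 at 239.7 and 348.0 against 1196 and 1586. The differences were -2.31 (SE 0.30) and -2.22 (SE 0.40), without overlap, and neither gene was called in this fit. After cyclopamine Ptch1 was at 9683 and 5793, with 9611 and 8474 after PBS, so its groups overlapped there. Gli1 was at 2157 and 1193 after cyclopamine and at 1070 and 2143 after PBS, also with overlap. A blockade by cyclopamine was thus not seen in these 2 genes. Markers of both tissues of a molar germ were present, since 17 of 17 dental epithelium genes (Krt5 highest, at a mean signal of 21114) and 18 of 18 dental mesenchyme genes (Sdc1 highest, 7718) were above the filter level. The arrays did not cluster by injection. By the correlation of all genes tested, the first replicates of PBS, 40-1a and 5E1 formed cluster 1. The second replicates of cyclopamine, 40-1a and 5E1 formed cluster 2, and the other two arrays, PBS replicate 2 with cyclopamine replicate 1, formed cluster 3. In bulk tissue fewer cells of a type and less RNA per cell cannot be told apart.

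**Figure D1:**
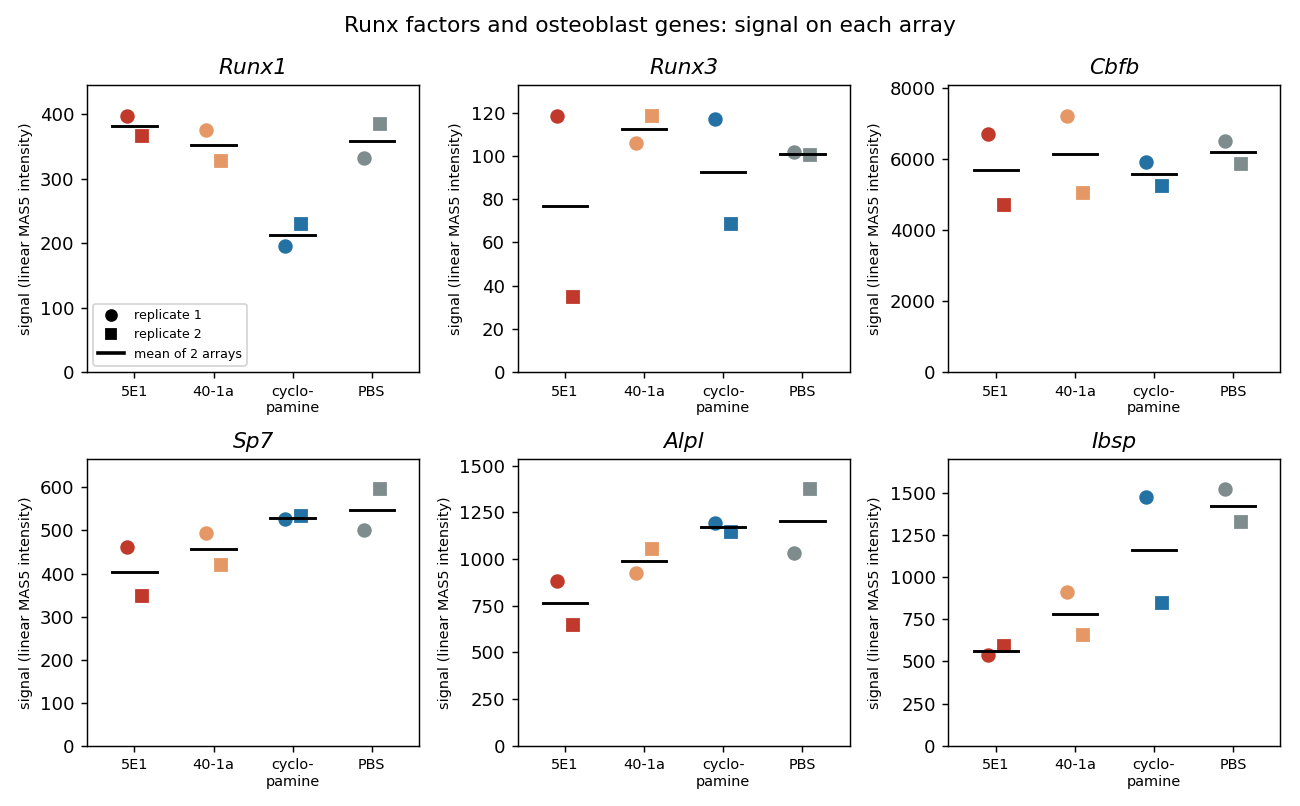
Signal (linear MAS5 intensity, axis from 0) of the 6 measured genes on each of the 8 arrays, by injection group; circles are replicate 1, squares replicate 2, and the line is the mean of 2 arrays. Ibsp and Alpl are lowest on the 5E1 arrays, Runx1 is lowest on the cyclopamine arrays, and Cbfb is lower in replicate 2 than in replicate 1 of every group.

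Setting 5E1 beside 40-1a addresses what a block of Shh changes with the antibody injection held equal. The osteoblast genes were lower on average after 5E1 and none passed the test. Ibsp (1417484_at), whose product binds collagen and nucleates mineral, had signals of 535.6 and 591.4 after 5E1 and 909.0 and 658.4 after 40-1a. Both 5E1 arrays lay below both 40-1a arrays, a log2 difference of -0.45 (SE 0.28, 95% interval -1.11 to 0.20). Alpl (1423611_at), which frees phosphate for mineral, was at 884.6 and 646.8 after 5E1 and at 926.2 and 1054 after 40-1a. Its arrays did not overlap either, and the difference was -0.38 (SE 0.22, 95% interval -0.89 to 0.13). Sp7 (1418425_at) was at 462.7 and 346.8 against 494.6 and 421.0, which overlapped, with a difference of -0.18 (SE 0.22). At an adjusted p of 0.05 limma called none of the 6 and 0 of all 12999 genes (0%). Without adjustment 158 genes (1.22%) were under 0.05. The smallest adjusted p of any gene was 0.968, and it was 1.00 for each of the 6. Arrays lay lower without overlap for 2 of the 6 genes, against 10.8% of all genes tested. The median difference of the 6 genes was -0.28, and that of all genes -0.01.

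The size of the osteoblast differences moved with single arrays. Within cluster 1 the difference between the antibody arrays was -0.75 for Ibsp, -0.07 for Alpl and -0.09 for Sp7, and within cluster 2 it was -0.15, -0.70 and -0.27. Ibsp was at -0.22 without 40-1a replicate 1 and at -0.68 without 40-1a replicate 2. Alpl was at -0.16 without 5E1 replicate 2 and at -0.60 without 5E1 replicate 1, and Sp7 ran from -0.39 without 5E1 replicate 1 to 0.019 without 5E1 replicate 2. The second Ibsp probe set, 1417485_at, was at 269.7 and 151.7 after 5E1 and at 433.5 and 194.0 after 40-1a. It had a difference of -0.50 (SE 0.43) with overlapping groups.

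The Runx factors and Cbfb did not pass in this comparison either. Runx1 (1422865_at), a factor needed for blood stem cell formation, was at 397.7 and 366.6 after 5E1 and at 376.2 and 327.2 after 40-1a. The groups overlapped, at 0.12 (SE 0.22, 95% interval -0.39 to 0.63), with 5 of the 6 Runx1 probe sets higher on average and 1 lower, and at 0.29 with their mean. Cbfb (1460716_a_at) was at 6688 and 4693 against 7208 and 5033, so each group spanned more than the distance between them. Its difference was -0.10 (SE 0.23), and it turned to 0.15 without 40-1a replicate 1. Runx3 (1440275_at), which acts in sensory neurons and T cells, was at 118.3 and 34.8 against 105.9 and 118.5. Its difference of -0.70 (SE 0.52, 95% interval -1.90 to 0.51) came from 5E1 replicate 2, and was 0.073 without that array. The weak probe set Runx3 1421467_at was at 13.9 and 8.57 after 5E1 and at 27.96 and 89.1 after 40-1a, without overlap (-1.59, SE 0.53). Only 40-1a replicate 2, of its 8 values, lay above the filter level, and Runx3 was tested through 1440275_at.

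Cyclopamine against PBS asks what an injection of the Smo antagonist changes, and neither Ptch1 nor Gli1 separated these groups. Runx1 was the gene of the set with the clearest difference, and no gene passed. Its signal was 195.5 and 229.7 after cyclopamine and 332.1 and 384.5 after PBS. The cyclopamine arrays were also the lowest of all 8 arrays, at a mean of 212.6 ± 24.2 (SD, n = 2) against 358.3 ± 37.0 (SD, n = 2). The log2 difference was -0.73 (SE 0.22, 95% interval -1.24 to -0.22), a 1.66-fold lower level on this scale, and ranked 27 of 12999 genes by p. By limma its adjusted p was 0.982. No gene was called by limma (0 of 12999, 0%). Without adjustment 205 genes (1.58%) were under 0.05, and 1 of them, Runx1, was in the set. Arrays lay lower without overlap for 1 of the 6 genes, against 14.4% of all genes tested. All 6 genes were lower on average, against 46.9% of all genes, with a median difference of -0.15 beside 0.02 for all genes, and with median centring, which shifted all genes by 0.13, Sp7 and Alpl were at 0.086 and 0.10.

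The other 5 probe sets of Runx1 also had lower means after cyclopamine. Probe set 1422864_at was at 266.2 and 228.2 after cyclopamine and at 407.3 and 303.6 after PBS, without overlap (-0.50, SE 0.39). Probe set 1440878_at was at 150.2 and 68.7 against 139.2 and 156.8, with overlap (-0.50, SE 0.43). Probe sets 1452530_a_at and 1452531_at were at -0.18 (SE 0.36) and -0.04 (SE 0.60), and the weak 1427650_a_at was at -0.80 (SE 0.78). All 6 were thus lower on average, 2 of them without overlap. With the mean of the probe sets Runx1 was at -0.46, and with each array left out it ran from -0.84 to -0.62. Within cluster 3 the difference between its 2 arrays was -0.94. Macrophage and leukocyte genes are given beside it because Runx1 is made in such cells. The 15 of 17 macrophage and leukocyte genes above the filter level were all lower on average after cyclopamine, with a median of -0.28, and the summed signal of the 17 genes was 5462 to 6360 after cyclopamine and 6146 to 8909 after PBS. Itgam had the lowest mean of that list, 23.5, and Csf1r the highest, 1319. In the same comparison 16 of 18 dental mesenchyme genes (median -0.42) and 11 of 14 endothelial genes (-0.41) were lower. So were 6 of 10 osteoclast genes (-0.30). Of 17 dental epithelium genes 16 were higher (0.33), as were 17 of 18 skeletal muscle genes (0.98). In 40-1a against PBS 13 of the 15 macrophage and leukocyte genes were lower (-0.17), with Runx1 at -0.03. Over all arrays Runx1 had r = 0.34 with the macrophage and leukocyte list. The part of these cells in the Runx1 difference was not tested.

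**Figure D2:**
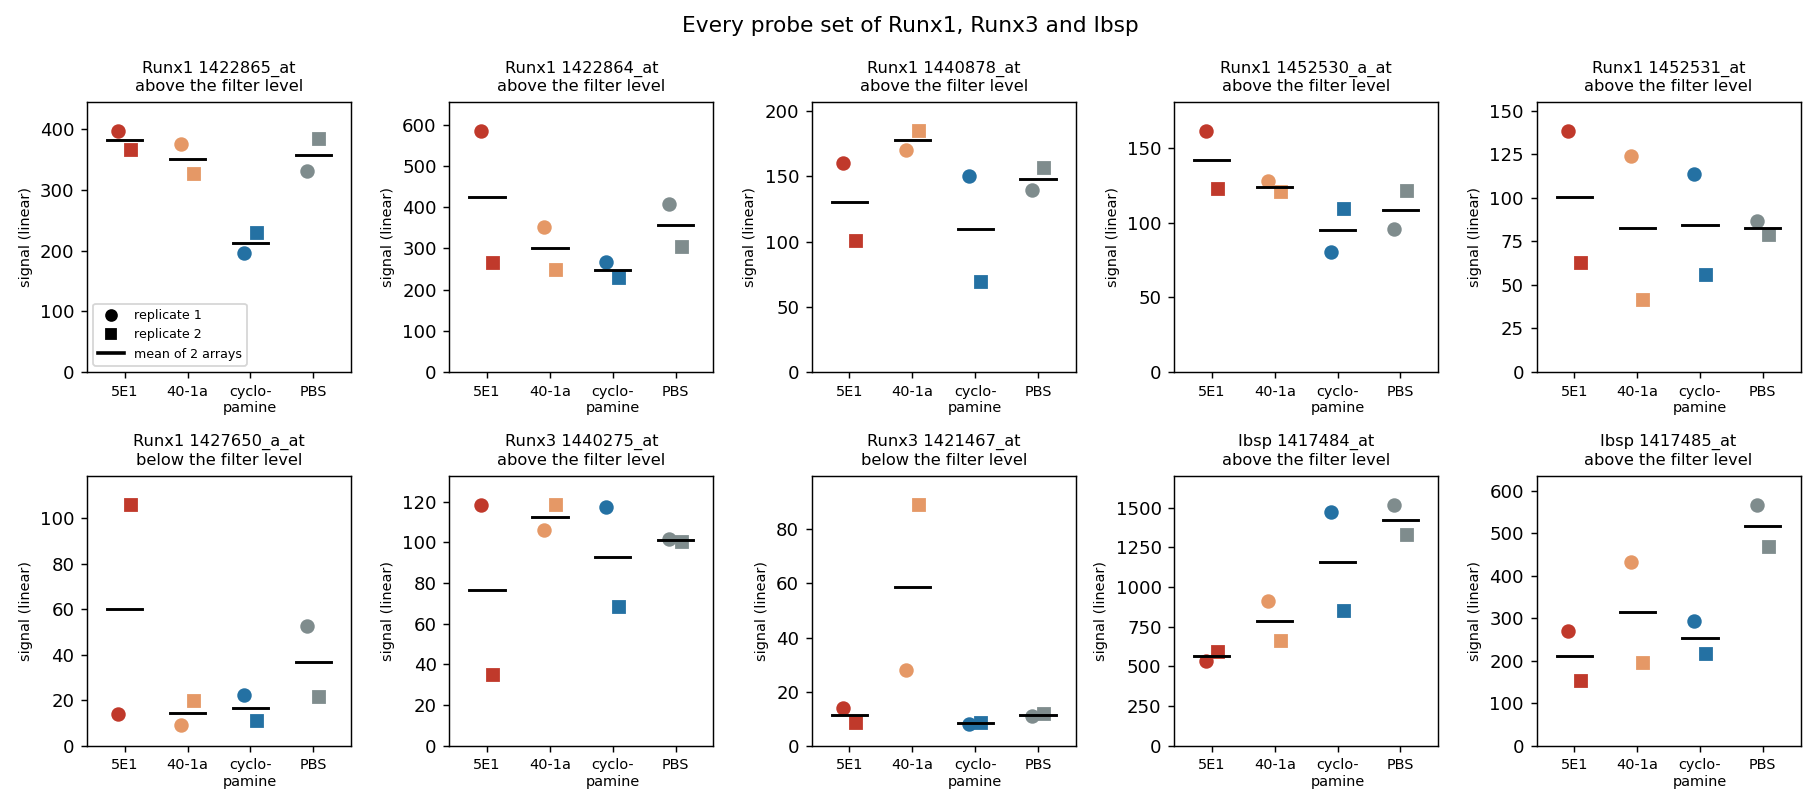
Signal (linear MAS5 intensity, each axis from 0) of every probe set of Runx1, Runx3 and Ibsp on the 8 arrays; circles are replicate 1, squares replicate 2, and lines are means of 2 arrays. Runx1 1422865_at and 1422864_at are lower after cyclopamine than after PBS without overlap, Runx1 1427650_a_at and Runx3 1421467_at lie below the filter level of 60.5 on average, and both Ibsp probe sets are highest after PBS on average.

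The remaining genes showed smaller differences after cyclopamine. Ibsp 1417484_at was at 1471 and 848.1, against 1519 and 1325 after PBS, so cyclopamine replicate 1 lay among the PBS arrays (-0.34, SE 0.28, 95% interval -0.9997 to 0.32). Without cyclopamine replicate 1 it was at -0.74, and without cyclopamine replicate 2 at 0.052. Within cluster 3 it was 0.15. Ibsp 1417485_at was at 292.5 and 215.2 against 567.7 and 466.7, without overlap, a difference of -1.01 (SE 0.43, 95% interval -1.99 to -0.03). With the mean of both probe sets Ibsp was at -0.68, and the difference between them was not tested. Alpl was at 1195 and 1146 against 1035 and 1373 (-0.03, SE 0.22, 95% interval -0.53 to 0.48). Sp7 was at 525.9 and 533.3 against 500.3 and 595.4 (-0.04, SE 0.22, 95% interval -0.56 to 0.47). In both genes the cyclopamine arrays lay between the PBS arrays. Cbfb was at 5918 and 5217 against 6508 and 5839 (-0.15, SE 0.23), and Runx3 at 117.1 and 68.3 against 101.7 and 100.2 (-0.16, SE 0.52). With 1 array left out Alpl ran from -0.23 without PBS replicate 1 to 0.18 without PBS replicate 2, Sp7 from -0.17 to 0.081 without the same arrays, and Runx3 from -0.51 without cyclopamine replicate 1 to 0.20 without cyclopamine replicate 2.

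The antibody and cyclopamine effects were set against each other directly. For Runx1 the antibody effect minus the cyclopamine effect was 0.85 (SE 0.31, 95% interval 0.13 to 1.57), with the same sign in all 6 probe sets, and limma gave an adjusted p of 1.00. For Ibsp it was -0.11 (SE 0.40), for Alpl -0.35 (SE 0.31), for Sp7 -0.14 (SE 0.31), for Runx3 -0.54 (SE 0.73) and for Cbfb 0.05 (SE 0.32). On this difference no gene was called by limma (0%), and 187 (1.44%) were under 0.05 without adjustment. For Ibsp the sign turned to 0.28 without cyclopamine replicate 1, for Runx3 to 0.23 without 5E1 replicate 2, for Sp7 to 0.062 without 5E1 replicate 2 and for Cbfb to -0.21 without 40-1a replicate 2.

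The unrelated antibody against PBS addresses what an antibody injection does by itself, and here Ibsp stood out within the set. Its signals of 909.0 and 658.4 after 40-1a lay below the 1519 and 1325 after PBS. The mean was 783.7 ± 177.2 (SD, n = 2) against 1422 ± 137 (SD, n = 2), a log2 difference of -0.87 (SE 0.28, 95% interval -1.52 to -0.21), or 1.82-fold lower on this scale. It ranked 19 of 12999 genes by p, and limma gave an adjusted p of 1.00. The second probe set, 1417485_at, was at 433.5 and 194.0 against 567.7 and 466.7, again without overlap (-0.81, SE 0.43). With each array left out Ibsp ran from -1.10 without 40-1a replicate 1 to -0.64 without 40-1a replicate 2. No gene was called by limma (0%), and without adjustment 88 (0.677%) were under 0.05, Ibsp among them. Sp7 (-0.25, SE 0.22) lay lower without overlap as well, so 2 of the 6 genes did, against 10.8% of all genes tested. Runx3 lay higher without overlap, by 0.14 (SE 0.52), against 9.69% of all genes. Alpl (-0.27, SE 0.22), Cbfb (-0.03, SE 0.23) and Runx1 (-0.03, SE 0.22, and -0.15 with the mean of its probe sets) overlapped between the groups. With 1 array left out Alpl ran from -0.47 without PBS replicate 1 to -0.07 without PBS replicate 2, Sp7 from -0.38 to -0.13 without the same arrays, Cbfb from -0.29 without 40-1a replicate 1 to 0.23 without 40-1a replicate 2, and Runx1 from -0.13 without PBS replicate 1 to 0.077 without PBS replicate 2.

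By probe set 1417484_at Ibsp was lowest after 5E1, next after 40-1a, then after cyclopamine and highest after PBS, with means of 563.5, 783.7, 1160 and 1422. By 1417485_at the order was 5E1 (210.7), cyclopamine (253.9), 40-1a (313.7) and PBS (517.2), with overlap between all neighbours but 40-1a and PBS. For 1417484_at the arrays of 5E1 and 40-1a did not overlap, those of 40-1a and cyclopamine did, and so did those of cyclopamine and PBS. Against PBS, a comparison added after the values were seen and sharing the PBS arrays with the others, Ibsp after 5E1 was at -1.32 (SE 0.28, 95% interval -1.98 to -0.66), 2.50-fold lower on this scale. It ranked 11 of 12999 genes by p, with an adjusted p of 1.00 by limma. No gene was called (0%), and 193 (1.48%) were under 0.05 without adjustment. Ibsp, Alpl and Sp7 lay lower than PBS without overlap, 3 of the 6 genes, against 12.4% of all genes. With each array left out the value ran from -1.42 to -1.22, and it was -1.09 with the array cluster as a block. Alpl had the order of means of Ibsp 1417484_at, 765.7, 989.9, 1170 and 1204, and was at -0.65 (SE 0.22) between 5E1 and PBS. The arrays of 5E1 and 40-1a, and of 40-1a and cyclopamine, did not overlap for Alpl, while those of cyclopamine and PBS did. Sp7 again had that order, with means of 404.8, 457.8, 529.6 and 547.8 and a difference of -0.44 (SE 0.22) between 5E1 and PBS. For Sp7 only 40-1a and cyclopamine, among neighbours in the order, did not overlap.

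Runx1 had another order, with cyclopamine lowest (212.6), then 40-1a (351.7), PBS (358.3) and 5E1 (382.2), and only the step from cyclopamine to 40-1a was free of overlap. For Runx3 the means ran from 76.6 after 5E1 through 92.7 after cyclopamine and 101.0 after PBS to 112.2 after 40-1a. Only PBS and 40-1a did not overlap. For Cbfb the order was cyclopamine (5567), 5E1 (5691), 40-1a (6120) and PBS (6173), with all neighbours overlapping.

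**Figure D3:**
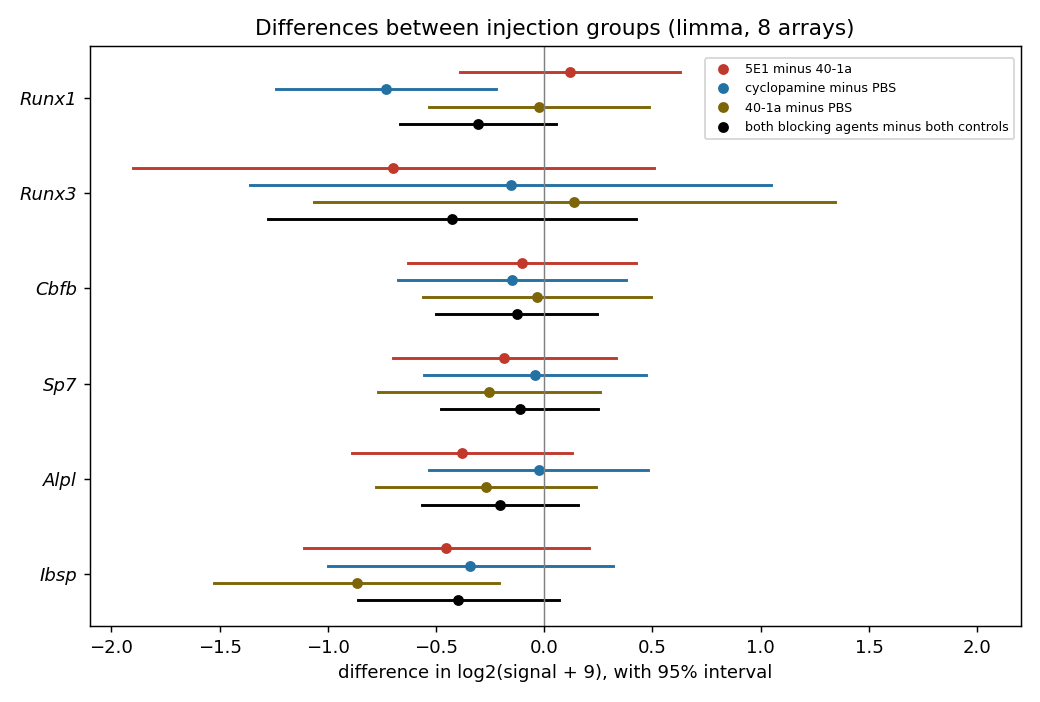
Differences in log2(signal + 9) between injection groups for the 6 genes (rows), with 95% intervals from the limma fit to 8 arrays; colours mark the comparison. Of the 4 comparisons drawn, the interval leaves out 0 for Runx1 in cyclopamine minus PBS (-0.73) and for Ibsp in 40-1a minus PBS (-0.87) only, and no gene passes at an adjusted p of 0.05.

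With both blocking agents set against both controls, all 6 genes were lower on average, against 48.6% of all genes, and none passed. Their median was -0.25. This was not particular to the set: 16 of 18 dental mesenchyme genes (median -0.48) and 13 of 14 endothelial genes (-0.14) were lower too. Of 17 dental epithelium genes, 15 were higher (0.20). Ibsp was at -0.40 (SE 0.20), Runx1 at -0.31 (SE 0.15), Runx3 at -0.43 (SE 0.37), Alpl at -0.20 (SE 0.15), Cbfb at -0.13 (SE 0.16) and Sp7 at -0.11 (SE 0.16). The arrays of the sides overlapped for all 6, where 0.754% of all genes lay lower without overlap. No gene was called by limma (0%), and the 160 genes (1.23%) under 0.05 without adjustment included none of the set. With the mean of a gene's probe sets Runx1 was at -0.085 and Ibsp at -0.58. The second Ibsp probe set was at -0.76 (SE 0.30, 95% interval -1.45 to -0.06). Ibsp ran from -0.59 without cyclopamine replicate 1 to -0.20 without cyclopamine replicate 2, Runx3 from -0.81 without 5E1 replicate 1 to -0.04 without 5E1 replicate 2, and Alpl from -0.32 to -0.09 without those same 5E1 arrays. Sp7 ran from -0.21 to -0.012 without them too, and Cbfb from -0.26 without 40-1a replicate 2 to 0.0025 without 40-1a replicate 1.

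Cbfb, whose injection groups all overlapped, differed between the array clusters. It was at 6508 to 7208 on the cluster 1 arrays, 4693 to 5217 on those of cluster 2 and 5839 to 5918 on those of cluster 3, with no overlap between the 3 clusters. The clusters were made from all genes tested, so separation between them is built in and this is a description with no test. The share of all genes without overlap between clusters was not counted, for Cbfb or for the probe sets below. Over the 8 arrays 442 genes had r above 0.9 with Cbfb. Over 17 dental epithelium genes the mean log2 value was 11.37 to 11.42 in cluster 1, 11.98 to 12.16 in cluster 2 and 11.59 to 11.63 in cluster 3. Over 18 dental mesenchyme genes it was 10.85 to 11.01, 9.50 to 10.19 and 10.92 to 11.02. Runx1 1422864_at (352.3 to 585.1 in cluster 1, 228.2 to 263.6 in cluster 2), Runx1 1452531_at (86.5 to 138.4 and 41.3 to 62.6) and Ibsp 1417485_at (269.7 to 567.7 and 151.7 to 215.2) also did not overlap between clusters 1 and 2, while Runx1 1422865_at, Alpl, Sp7 and Ibsp 1417484_at overlapped between them. The 23 osteoblast and bone matrix genes tested had means of 10.03 to 10.24 in cluster 1 and 9.48 to 9.92 in cluster 2. The lists of osteoclast genes (9.15 to 9.29 and 8.56 to 8.91) and of endothelial genes (8.95 to 9.26 and 8.31 to 8.66) had lower means in cluster 2. The part of tissue make-up in the differences between injection groups was not tested.

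**Figure D4:**
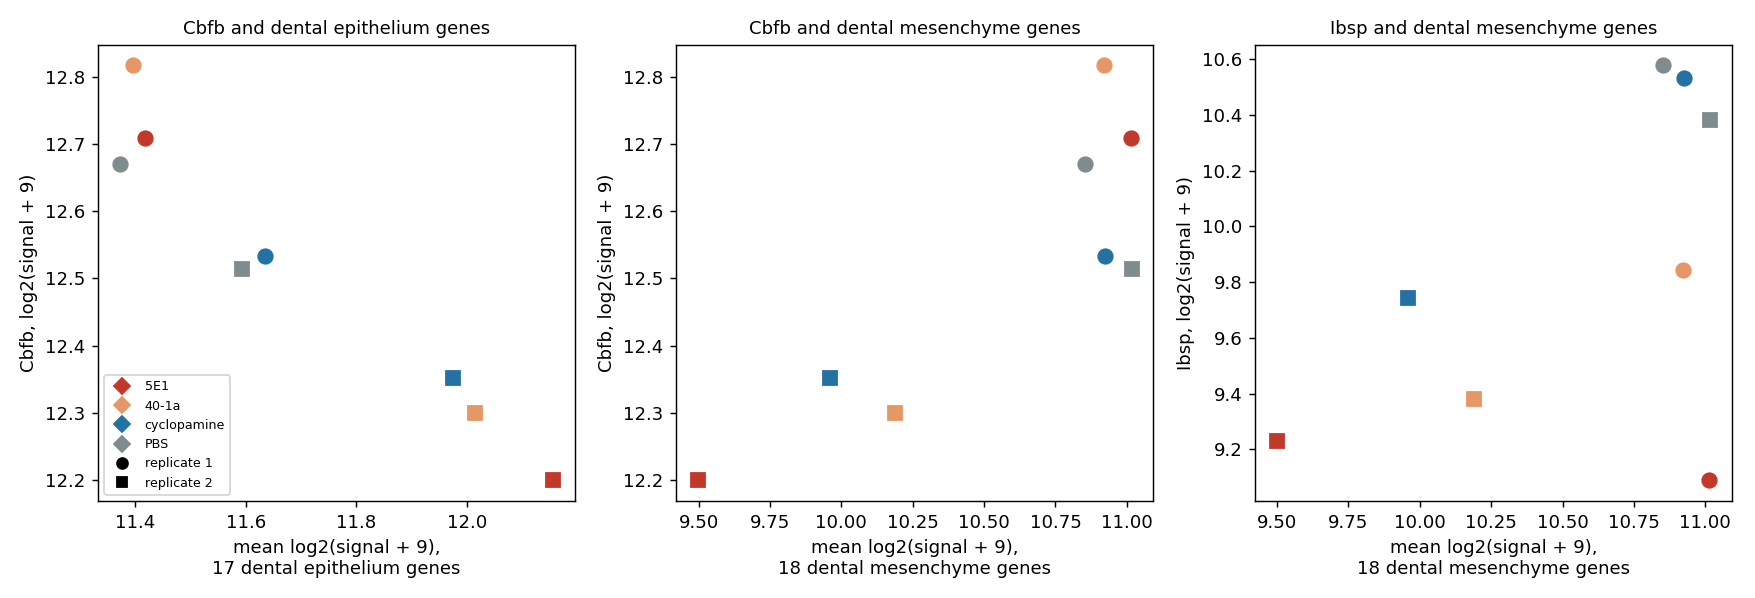
log2(signal + 9) of Cbfb against the mean of 17 dental epithelium genes (left) and of 18 dental mesenchyme genes (middle), and of Ibsp against the mesenchyme genes (right), 1 point per array; colours are injection groups, circles replicate 1 and squares replicate 2. The 3 arrays with the highest epithelial means, 11.98 to 12.16, have the lowest Cbfb values. By probe set 1417484_at Ibsp is lowest on 5E1 replicate 1, an array with a high mesenchymal mean (11.01). By probe set 1417485_at it is lowest on 5E1 replicate 2 (signal 151.7), the array with the lowest mesenchymal mean (9.50).

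Cells other than osteoblasts could add to these transcripts, and their markers were counted. Of 15 osteoclast genes 10 were above the filter level, Ctsk highest at a mean of 1469, while Itgb3 (19.8), Calcr (34.5) and Oscar (37.4) were below it. The summed osteoclast signal was 4281 to 8476 after 5E1, 5612 to 7424 after 40-1a, 6007 to 6889 after cyclopamine and 7284 to 7900 after PBS. Of 22 cartilage genes 14 were above the level, and Col10a1, the collagen of hypertrophic cartilage that can also make Ibsp, had a mean of 13.8, with 64.2 on 5E1 replicate 1 and 2.06 to 11.3 on the other arrays. The summed cartilage signal was 4217 to 6613, 5297 to 6396, 4750 to 6475 and 6322 to 6584 in the same groups. The skeletal muscle genes, of which 18 of 20 were above the level, ran from a sum of 2231 on 40-1a replicate 1 to 20391 on cyclopamine replicate 2. Neuron genes, which matter for Runx1 and Runx3, had sums of 1809 to 2858 over all arrays, with Tubb3 highest (494.2) and Pou4f1 lowest (21.0). Osteoclast and cartilage sums were both highest on 5E1 replicate 1 and lowest on 5E1 replicate 2, of the 8 arrays. The cartilage genes did not move together between these arrays. Col11a1 (2209 and 416) and Matn4 (1717 and 481) were higher on replicate 1. Col2a1 (318.2 and 496.2), Sox9 (175.5 and 360.2) and Col9a3 (175.2 and 444.3) were lower on it. The part of these cells in the differences was not tested.

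Other genes of osteoblasts and bone matrix were taken from a list of 33, of which 26 had a single-gene probe set and 23 were tested. Limma called none of them in any of the 5 comparisons. Without adjustment none was under 0.05 for 5E1 against 40-1a or cyclopamine against PBS, 1 was for 40-1a against PBS, 1 in the pooled comparison and 2 on the difference of the effects, where 0.677% to 1.58% of all genes were. After 5E1 against 40-1a 16 of 23 were lower on average, against 53.4% of all genes tested, with a median of -0.15, and 4 lay lower without overlap, where 10.8% of all genes did. After cyclopamine against PBS 17 were lower, against 46.9%, with a median of -0.29, and 9 lay lower and 4 higher without overlap, where 14.4% and 17.8% of all genes did. Between the controls, 40-1a against PBS, 18 were lower, with a median of -0.20 beside -0.003 for all genes. There 5 lay lower and 2 higher without overlap, where 10.8% and 9.69% of all genes did. Dlx5, a homeobox factor upstream of Runx2 in bone, was at 1838 and 1496 after 5E1, 2064 and 2176 after 40-1a, 2024 and 1977 after cyclopamine, and 2275 and 2441 after PBS. Every array of a blocking agent thus lay below every control array, for a pooled difference of -0.29 (SE 0.11), the only one of the 23 tested genes of the list to do so. Over all genes tested the share was 0.754%. Ifitm5, a membrane protein of osteoblasts, was at 111.1 and 118.6 after 5E1 and at 169.4 and 177.2 after 40-1a (-0.56, SE 0.24). After cyclopamine it was at 184.9 and 193.5, above the PBS arrays at 153.9 and 158.3. Smpd3, a sphingomyelinase needed for bone mineral, was at -0.66 (SE 0.34) after 5E1 without overlap.

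After cyclopamine the homeobox gene Msx2 was at -0.47 (SE 0.23), Dlx6, a homeobox gene linked to Dlx5, at -0.79 (SE 0.40) and Tnfsf11, the osteoclast-inducing ligand RANKL, at -0.79 (SE 0.45), each without overlap against PBS. Dlx6 was at 162.6 and 81.7 after 5E1, 78.8 and 90.7 after 40-1a, 76.1 and 128.9 after cyclopamine, and 180.1 and 177.9 after PBS, so it was lower than PBS on all 6 other arrays. In the pooled comparison Tnfsf11 was at -0.64 (SE 0.32), Msx2 at -0.31 (SE 0.16), Smpd3 at -0.37 (SE 0.24), the pyrophosphate transporter gene Ank at -0.34 (SE 0.25) and Vdr, the vitamin D receptor, at 0.28 (SE 0.21). Col1a1, the main collagen of bone, was at 12157 and 8420 after 5E1, 8711 and 8745 after 40-1a, 8770 and 9964 after cyclopamine, and 11060 and 9774 after PBS. Its groups overlapped between 5E1 and 40-1a, and it was named after its values were seen.

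Genes for proteins that bind or modify Runx factors gave no call by limma either. In none of the 5 comparisons was one under 0.05 without adjustment, where 0.677% to 1.58% of all genes were. Of 27 listed, 24 were tested, with 16 lower on average after 5E1 against 40-1a (median -0.08), beside 53.4% of all genes, and 11 lower after cyclopamine against PBS (median 0.03), beside 46.9%. For 5E1 against 40-1a 4 of the 24 lay lower without overlap, where 10.8% of all genes did. A further 2 lay higher, a count given without the share of all genes and therefore not read further. For cyclopamine against PBS 3 lay lower and 3 higher, where 14.4% and 17.8% of all genes did. Wwp1, a ubiquitin ligase acting on Runx2, was at -0.38 (SE 0.21) after 5E1 without overlap, as were Dlx3 (-0.64, SE 0.38), a homeobox factor, and Hdac6 (-0.33, SE 0.20), a deacetylase. After cyclopamine the Groucho corepressor gene Tle3 was at 0.35 (SE 0.18) without overlap, Smad3, a TGF-β signal transducer, at 0.30 (SE 0.20) with overlap, and Cbfa2t3, of the corepressor family that includes the leukaemia fusion partner of Runx1, at -0.47 (SE 0.35) without overlap. In the pooled comparison Twist1 and Twist2, which inhibit Runx2, were at -0.53 (SE 0.40) and -0.67 (SE 0.45), and Tle4 was at 0.17 (SE 0.11), all with overlap.

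The genes most like each of the 6 across the 8 arrays were taken by Pearson's r of log2(signal + 9) over 12993 other genes. The arrays share clusters, and with 8 points many genes reach a high r by array make-up, so this is a description. Cbfb was closest to Cntln (r = 0.99), Cog3 (0.99) and Ing5 (0.99), and 442 genes exceeded 0.9. Runx1 was closest to Cyp51 (0.96), Leng9 (0.96) and Folr1 (0.95), with 18 genes above 0.9. Runx3 was closest to Robo4 (0.96), Akap13 (0.95) and Sla (0.95), with 30 above 0.9. Alpl was closest to Pik3ca (0.96), Prkcsh (0.96) and P4htm (0.96), with 23 above 0.9. Sp7 was closest to Eva1a (0.95), Prr5l (0.93) and Gm11944 (0.92), with 12 above 0.9. Ibsp was closest to B130055M24Rik (0.95), Tsen34 (0.92) and Aldh1a2 (0.92), with 9 above 0.9. Cbfb thus had the most company and Ibsp the least. Within the set the highest r was that of Sp7 with Alpl (0.90), followed by Sp7 with Ibsp (0.71) and Alpl with Ibsp (0.67), while Runx1 was at -0.41 with Alpl and -0.40 with Ibsp.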

How the data were processed

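RNA of 8 samples was measured on Affymetrix mouse arrays, 1 per sample. Each deposited value is a linear intensity per probe set, computed by the authors using MAS5 (per the submitters' processing notes). The sources used here state no software version, scaling target or hybridisation batch. No further scaling was applied. The platform annotation gave exactly 1 gene for 34945 probe sets, several for 932 and none for 9160, beside 64 control probe sets. Single-gene probe sets were transformed to log2(signal + 9), the probe set of highest mean was kept for each of 18193 genes, and a mean of at least log2 6.12, the 40th percentile over every probe set, was required, which left 12999. Testing used limma 3.58.1 under R 4.3.3 (lmFit, contrasts.fit, eBayes with trend) in 1 fit of 4 group means with 4 residual degrees of freedom, and p-values were adjusted by Benjamini-Hochberg over all 12999 genes. Single probe sets were fitted over all single-gene probe sets without the filter. The number of arrays limits the precision. The fit was tested on simulated data.

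The genes and lists were chosen with earlier results of these data known. The genes named are the set itself, of the osteoblast list and the Runx partner list the 6 with the smallest p in the pooled comparison and the 3 in each single comparison, Ptch1 and Gli1, the extremes of each marker list, and the 3 nearest patterns per gene. Alternatives changed scaling, pseudocount, filter, variance model, array weights, probe set rule, the arrays and groups fitted and the block; the array cluster block and 5E1 against PBS were added after the data were examined.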

Additional observations from a re-analysis of the deposited data

How the results depend on the processing

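No alternative called any of the 6 genes. The smallest adjusted p by limma was 0.702 over the 5 planned comparisons, and 0.397 for Ibsp in the added 5E1 minus PBS with the replicate number as a block. Of 638 values under alternatives, 604 kept their sign and 34 turned it. Many of these settings cannot move a difference, such as another variance model or leaving out an array of a group not compared. The 604 are therefore no measure of how stable the signs are. Over all genes, the replicate number as a block called 1 gene for 5E1 against 40-1a and 1 for the pooled comparison, and the array cluster block called 3, 2 and 3 genes for 5E1 against 40-1a, the pooled comparison and the difference of the effects. The replicate numbers are not stated to pair samples: the deviations of same-numbered arrays correlated at 0.0016 (cyclopamine with PBS) to 0.59 (5E1 with 40-1a), so the block is an alternative only, and with it no gene of the set was called.

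With median centring cyclopamine minus PBS was at 0.10 for Alpl and 0.086 for Sp7, and the difference of the effects at -0.0066 for Cbfb; quantile normalisation gave 0.0054 for Sp7 in cyclopamine minus PBS and 0.0064 for Runx1 in 40-1a minus PBS. The mean of probe sets gave 0.20 for Ibsp in the difference of the effects. With the array cluster block cyclopamine minus PBS was at 0.19 for Runx3, 0.090 for Cbfb and 0.057 for Sp7, 40-1a minus PBS at 0.093 for Cbfb, and the difference of the effects at -0.19 for Cbfb. The cause was not tested.

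With 1 array left out, signs turned in these ranges. For 5E1 minus 40-1a Cbfb ran from -0.36 to 0.15, Runx3 from -1.47 to 0.073 and Sp7 from -0.39 to 0.019. For cyclopamine minus PBS Ibsp ran from -0.74 to 0.052, Alpl from -0.23 to 0.18, Runx3 from -0.51 to 0.20 and Sp7 from -0.17 to 0.081. For 40-1a minus PBS Cbfb ran from -0.29 to 0.23 and Runx1 from -0.13 to 0.077. For the pooled comparison Cbfb ran from -0.26 to 0.0025. For the difference of the effects Cbfb ran from -0.21 to 0.30, Ibsp from -0.51 to 0.28, Runx3 from -1.31 to 0.23 and Sp7 from -0.34 to 0.062. Runx3 has no value with the mean of probe sets or with a filter at the 60th percentile, where it was left out. Runx3 and the weakest Runx1 probe set lay close to or under the filter level, where signal over background limits the values most.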

Other observations

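A gene below the filter level was chosen after its values were seen. Mepe, a matrix phosphoglycoprotein of the same protein family as Ibsp, was at 9.28 and 10.4 after 5E1 and at 10.3 and 6.54 after cyclopamine, against 58.9 and 38.2 after 40-1a and 57.4 and 47.2 after PBS. All 4 arrays of the blocking agents thus lay below all 4 control arrays. Over all genes tested 0.754% lay lower in this way. The 10th percentile of all values was 8.80, so the values after the blocking agents were near the floor. Every Mepe value lay below the filter level of 60.5, so the gene was not among those tested.

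Mmp13, a collagenase of osteoblasts and hypertrophic cartilage also picked after its values were seen, varied by array within groups. It was at 124.8 and 162.1 after 5E1, 117.2 and 574.8 after 40-1a, 110.4 and 629.0 after cyclopamine and 437.4 and 326.4 after PBS. The groups overlapped between 5E1 and 40-1a and between cyclopamine and PBS, with differences of -0.84 (SE 0.87) and -0.49 (SE 0.87).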
